A study of Mus musculus with 12 samples.

Results

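The S100 genes encode small calcium-binding proteins with a pair of EF-hand motifs each. The members described here were taken by gene symbol, and 8 of the 33531 symbols in each file matched: S100a1, S100a4, S100a6, S100a8, S100a9, S100a10, S100a11 and S100a13. All 8 passed the filter on low values, a mean of at least 1 RPKM over the 12 libraries (reads normalised for the length of the gene and the depth of the library). The cells were a mouse acute myeloid leukaemia line, CMM-tetON-shStat3, of the kind that carries the inv(16) rearrangement. An inducible short hairpin against Stat3, turned on by doxycycline (Dox), was built into the line, which also carries the markers GFP and mCherry. The cells were injected into a vein of immunodeficient NSG mice, and treatment began when marked cells made up about 1% of the blood. The 4 groups of 3 libraries were given PBS, CpG1668, Dox, or CpG1668+Dox, where CpG1668 is a synthetic ligand of the innate immune receptor TLR9. All groups hold the hairpin, and no group received Dox without it, so Dox itself and the hairpin cannot be told apart. On the schedule the labels differ: the sample protocol has 6 daily doses, and the series design has 3 doses on alternate days. Spleens were taken 1 day after treatment ended, and the marked cells were isolated by flow cytometry. A single line is named, with no age or sex of the mice, and nothing states whether each library is from its own mouse. P-values therefore measure only the spread between libraries.

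S100 proteins work as dimers that change shape when calcium binds and then grip a partner protein. S100a8 and S100a9 (the calgranulins) pair to form calprotectin, which fills the cytosol of neutrophils, is abundant in monocytes, binds zinc and calcium, and signals through TLR4 when released. S100a4 binds non-muscle myosin and S100a6 binds the calcyclin-binding protein. S100a10, which has lost calcium binding, forms a complex with annexin A2, S100a11 binds annexin A1, S100a13 takes part in the export of proteins that lack a signal peptide, and S100a1 is best known from muscle.

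The 8 genes lie in a pair of blocks on chromosome 3 (GENCODE M21, build GRCm38, which is the mm10 of the submitters' processing notes). The first block spans 185 kb and holds S100a1 (90511034 to 90514392, minus strand), S100a13 (90514435 to 90524581, plus), S100a4 (90603771 to 90606045, plus), S100a6 (90612882 to 90624181, plus), S100a8 (90668978 to 90670035, plus) and S100a9 (90692632 to 90695721, minus). The second block, 2824.8 kb further on, holds S100a11 (93520488 to 93526287, plus) and S100a10 (93555080 to 93564643, plus). S100a1 and S100a13 start back to back, and in RefSeq they overlap by 98 bases on opposite strands. The sources used here do not say whether counting used strand, so reads of that stretch could be split between them. S100a11 has a pseudogene copy on chromosome 12, S100a11-ps, and reads shared with it cannot be told apart.

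RefSeq promoter windows (GRCm38.p6) were found for 7 of the 8 members, all but S100a10. The 250 bases before the annotated start of the 4 members called higher in every treated group are shown, because these genes were called against PBS in all 3 treated groups. Capitals mark matches, on either strand, to 4 motifs: TTGCNNAA (the core of C/EBP sites), TTCNNNGAA (STAT sites), GAGGAAGT (PU.1 sites) and TATAAA (the TATA box). The windows are chr3:90668821-90669070 for S100a8 (plus strand), chr3:90695722-90695971 for S100a9 (minus), chr3:90603520-90603769 for S100a4 (plus) and chr3:90612644-90612893 for S100a6 (plus). For S100a8 and S100a6 the RefSeq start lies within the GENCODE gene, so these windows reach past its first base.
S100a8: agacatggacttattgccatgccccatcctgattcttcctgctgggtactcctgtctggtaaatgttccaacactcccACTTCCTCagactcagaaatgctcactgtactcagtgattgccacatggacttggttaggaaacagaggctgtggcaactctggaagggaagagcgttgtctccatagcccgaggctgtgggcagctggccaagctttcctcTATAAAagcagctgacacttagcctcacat
S100a9: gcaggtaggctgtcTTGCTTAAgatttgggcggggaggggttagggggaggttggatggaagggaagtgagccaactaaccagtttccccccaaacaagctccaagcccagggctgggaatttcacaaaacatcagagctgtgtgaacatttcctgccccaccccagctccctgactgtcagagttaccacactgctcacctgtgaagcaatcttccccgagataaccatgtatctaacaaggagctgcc
S100a4: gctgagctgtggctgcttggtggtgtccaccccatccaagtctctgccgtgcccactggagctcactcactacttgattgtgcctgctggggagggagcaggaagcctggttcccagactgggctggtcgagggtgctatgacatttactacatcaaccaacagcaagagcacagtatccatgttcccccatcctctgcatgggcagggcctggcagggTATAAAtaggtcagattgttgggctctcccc
S100a6: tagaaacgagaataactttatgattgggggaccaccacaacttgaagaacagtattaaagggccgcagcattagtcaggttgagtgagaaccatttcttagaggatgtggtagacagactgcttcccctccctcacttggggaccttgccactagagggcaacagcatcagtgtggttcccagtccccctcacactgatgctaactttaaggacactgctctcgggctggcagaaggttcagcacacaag
The S100a8 window held a TATAAA from 30 to 25 bases before the start and ACTTCCTC, the GAGGAAGT motif on the other strand, from 172 to 165 bases before it. The S100a4 window held a TATAAA from 31 to 26 bases before the start. In the S100a9 window the single match was TTGCTTAA, from 236 to 229 bases before the start, and the S100a6 window held none of the 4 motifs. Over all 32851 promoter windows of this length, 12.4% held TATAAA, 2.44% GAGGAAGT, 9.56% TTGCNNAA and 7.02% TTCNNNGAA. No window of the 7 members held TTCNNNGAA, which says only that these letters are not in these windows. The 4 windows printed held 2 CpG dinucleotides in S100a8, S100a9 and S100a4 and 3 in S100a6. The median was 6 over all windows, of which 49.6% held 5 or fewer. The windows of S100a1, S100a11 and S100a13 held 8, 11 and 13, and S100a1 and S100a11 were also called higher in CpG1668+Dox against PBS.

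The depth implied by the step of 1 read was 30460000 to 35040000 reads per library, and a gene of 1 kb with 3 reads would have 0.086 to 0.098 RPKM. Stat3, the target of the hairpin, was not lower in libraries labelled Dox or CpG1668+Dox, with RPKM of 17.2 ± 0.576 (SD, n = 3) for PBS, 18.2 ± 0.483 for CpG1668, 18.9 ± 0.173 for Dox and 19.4 ± 0.331 for CpG1668+Dox. By limma it was called higher against PBS in libraries labelled Dox (0.13, adjusted p = 0.0439) and CpG1668+Dox (0.16, adjusted p = 0.0068), which goes against the label of a hairpin that lowers it. The labels could not be checked by this transcript, and each group name here means the libraries labelled so. The sorted cells had Kit at 15.8 to 19.7 RPKM and the erythroid factor Gata1 at 85.6 to 107, while the pan-leucocyte gene Ptprc was at 0.429 to 0.742 in PBS and 3.25 to 4.6 in CpG1668+Dox. Late neutrophil markers differed more between libraries in Dox and in CpG1668+Dox than in CpG1668. Their summed level (21 genes, none of them an S100 gene) was 40 to 78.2 RPKM in PBS, 229 to 299 in CpG1668, 211 to 755 in Dox and 620.3 to 1528 in CpG1668+Dox.

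S100a8 and S100a9 were higher in each treated group than in PBS and were highest in CpG1668+Dox, where their mean levels were 18.9 and 20 times those in PBS. S100a8 was at 25.1, 54.2 and 38.4 RPKM in the PBS libraries 1, 2 and 3, at 155, 148 and 190.4 in CpG1668, at 136, 315 and 614 in Dox, and at 730, 406 and 1087 in CpG1668+Dox. S100a9 was at 46.6, 94.3 and 66.3 in PBS, at 284, 289 and 379.7 in CpG1668, at 254, 577 and 1021 in Dox, and at 1340.2, 757 and 2043 in CpG1668+Dox. For each of them every treated library exceeded every PBS library. The CpG1668 libraries lay close together, Dox 1 lay below all 3 of them for both genes and Dox 3 above all, and Dox 3 exceeded CpG1668+Dox 2 for both genes. The order of the means was PBS, CpG1668, Dox and CpG1668+Dox, and neither CpG1668 and Dox nor Dox and CpG1668+Dox were apart beyond the spread of their libraries.

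**Figure D1:**
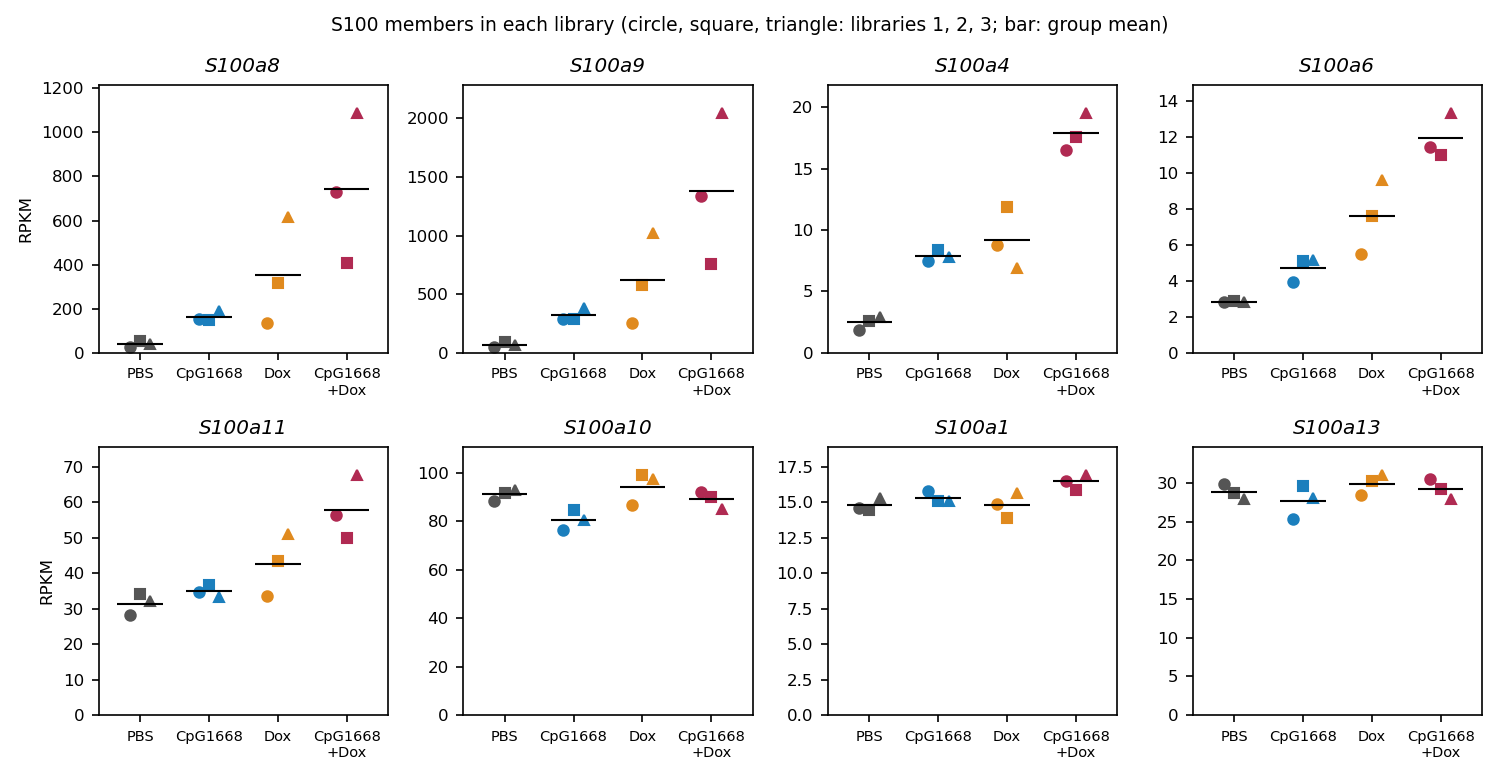
RPKM of the 8 S100 members (one panel each, linear axes from 0) in the 12 libraries, grouped as PBS, CpG1668, Dox and CpG1668+Dox. Symbols are libraries 1 to 3 and bars are group means. S100a8 and S100a9 spread from 136 to 614 and from 254 to 1021 RPKM among the libraries labelled Dox, whereas S100a10 and S100a13 stay near 88.7 and 28.9 RPKM throughout.

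By limma on log2(RPKM + 1), S100a8 changed by 2.09 ± 0.49 (log2 change ± SE, adjusted p = 0.0296) in CpG1668 against PBS, by 2.96 ± 0.49 (adjusted p = 0.0058) in Dox against PBS and by 4.16 ± 0.49 (adjusted p = 1.4e-04) in CpG1668+Dox against PBS. For S100a9 the changes against PBS were 2.23 ± 0.47 (adjusted p = 0.0184), 2.98 ± 0.47 (adjusted p = 0.0046) and 4.24 ± 0.47 (adjusted p = 8.6e-05). Adding Dox to CpG1668 raised S100a8 by 2.06 (adjusted p = 0.0438) and S100a9 by 2.01 (adjusted p = 0.0394). Adding CpG1668 to Dox gave 1.20 for S100a8 (95% interval 0.13 to 2.27, adjusted p = 0.291) and 1.26 for S100a9 (0.24 to 2.29, adjusted p = 0.231), which did not pass. The calls in CpG1668 against PBS were lost for S100a8 without PBS 1, PBS 3, CpG1668 1, CpG1668 2 or CpG1668 3 (adjusted p 0.069 to 0.103), and for S100a9 without 4 of these 5, all but CpG1668 2 (0.0511 to 0.0731), and for both without the filter on low values (0.0996 and 0.0723). In CpG1668+Dox against CpG1668 both calls were lost without PBS 3, Dox 2, any 1 CpG1668 library, CpG1668+Dox 1 or CpG1668+Dox 3, and that of S100a8 also without PBS 1 or PBS 2 (adjusted p up to 0.183). Both were lost without the filter (0.132 and 0.125) and with quantile normalization (0.0612 and 0.0523), and that of S100a8 also with a pseudocount of 0.1 (0.0528), median-of-ratios scaling (0.0518) or no intensity trend (0.0518). Those in Dox against PBS and CpG1668+Dox against PBS held in all 20 alternatives (8 settings and 12 libraries left out in turn).

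Per unit length, the calgranulin transcripts kept a near fixed proportion. The ratio of S100a8 to S100a9 RPKM ran from 0.501 to 0.602 over the 12 libraries, while each gene's own level ranged 43.2-fold and 43.8-fold. By rank among the 33531 symbols, S100a9 went from places 491 to 1098 in PBS to 14 to 84 in CpG1668+Dox, and S100a8 from 920 to 2129 to 62 to 135. They made up 30.2% to 46% of the summed RPKM of the 8 members in PBS and 84.5% to 93.2% in CpG1668+Dox. The 8 members together rose from 0.0632% to 0.0844% of a library's summed RPKM in PBS to 0.372% to 0.898% in CpG1668+Dox.

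The calgranulins moved with late neutrophil genes library by library. Ngp, the neutrophilic granule protein gene, was at 16, 32.8 and 20.5 RPKM in PBS, at 94.7, 95 and 124 in CpG1668, at 84, 211 and 322 in Dox and at 456, 258 and 680.4 in CpG1668+Dox. The ratio of S100a9 to Ngp was 2.73 to 3.23 in all 12 libraries. Of the 22 late neutrophil markers, 21 were found and 17 passed the filter, of which 10 rose and 0 fell in CpG1668 against PBS, 16 and 0 in Dox against PBS and 17 and 0 in CpG1668+Dox against PBS. The medians of their log2 changes were 1.26, 2.06 and 2.92, against -0.014, 0.014 and 0.003 over all genes tested. The filter took the mean over all 12 libraries, so markers low in PBS could pass it through the treated groups. These counts and medians are therefore partly set by the filter. Ly6g, a surface marker of mouse neutrophils, went from 0.547 ± 0.135 RPKM in PBS to 8.38 ± 2.7 in CpG1668+Dox. In sorted bulk cells, more cells of a type and more RNA per cell cannot be told apart, and the part of neutrophils in the S100a8 and S100a9 values was not tested.

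**Figure D2:**
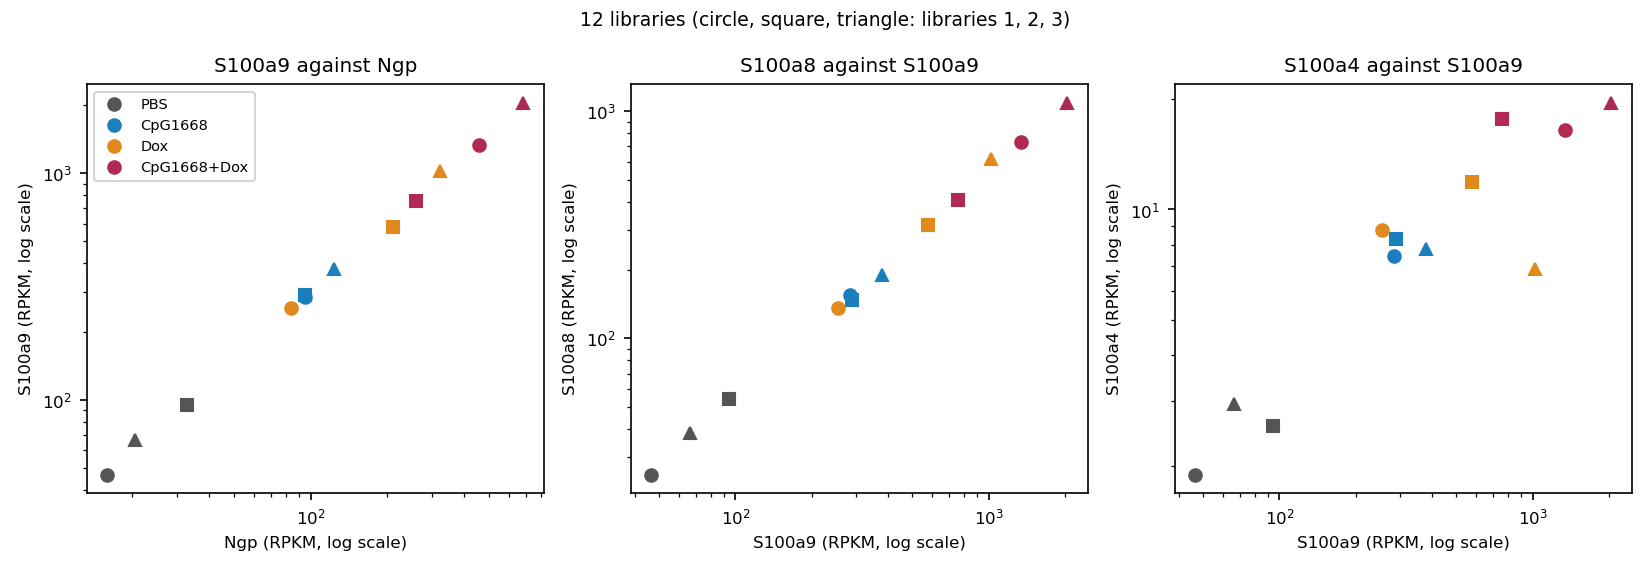
Levels of 3 pairs of genes in the 12 libraries (RPKM on log scales, coloured by group, symbols for libraries 1 to 3). S100a9 lies along a line with Ngp and S100a8 along a line with S100a9 across the groups. S100a4 does not follow S100a9 among the libraries labelled Dox. There Dox 3 has the highest S100a9 (1021 RPKM) and the lowest S100a4 (6.89 RPKM).

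S100a4 and S100a6 also rose in every treated group but at far lower levels and with a different spread. S100a4 was at 1.89, 2.56 and 2.95 RPKM in PBS, at 7.48, 8.33 and 7.82 in CpG1668, at 8.78, 11.9 and 6.89 in Dox and at 16.5, 17.6 and 19.5 in CpG1668+Dox. The CpG1668+Dox libraries stood above all others, the PBS libraries below all others, and CpG1668 and Dox overlapped. S100a4 rose by 1.37 ± 0.16 in CpG1668 against PBS (adjusted p = 4.1e-04), by 1.54 ± 0.16 in Dox against PBS (adjusted p = 6.3e-04) and by 2.45 ± 0.16 in CpG1668+Dox against PBS (adjusted p = 1.4e-06). It rose by 1.09 (adjusted p = 0.0061) when Dox was added to CpG1668 and by 0.92 (adjusted p = 0.0065) when CpG1668 was added to Dox. Its ratios of means to PBS were 3.19, 3.73 and 7.25. Among the 20 alternatives of each of these 5 contrasts, the single call lost was that of CpG1668+Dox against Dox when the fit held those 2 groups alone (adjusted p = 0.0526).

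S100a6 was at 2.82, 2.87 and 2.81 RPKM in PBS, at 3.95, 5.07 and 5.13 in CpG1668, at 5.51, 7.59 and 9.6 in Dox and at 11.4, 11 and 13.3 in CpG1668+Dox. None of the 4 groups overlapped another for this gene, in the order PBS, CpG1668, Dox and CpG1668+Dox. S100a6 rose by 0.57 ± 0.15 (adjusted p = 0.0444), 1.13 ± 0.15 (adjusted p = 0.0023) and 1.74 ± 0.15 (adjusted p = 9.6e-06) against PBS in CpG1668, Dox and CpG1668+Dox, and by 1.17 (adjusted p = 0.0036) when Dox was added to CpG1668. The rise when CpG1668 was added to Dox was 0.61 (adjusted p = 0.0437). CpG1668 against Dox gave -0.56 (95% interval -0.88 to -0.24, adjusted p = 0.0847), which did not pass, although it did without Dox 1 (-0.75, adjusted p = 0.016). Of the 20 alternatives, 10 lost the call of S100a6 in CpG1668 against PBS (adjusted p up to 0.142) and 14 that in CpG1668+Dox against Dox (up to 0.171), and none of them lost the other 3. The libraries whose absence lost the first were PBS 1, PBS 2, PBS 3, CpG1668 2, CpG1668 3, CpG1668+Dox 1, CpG1668+Dox 2 and Dox 2, and for the second all but CpG1668 1 and Dox 3.

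The ratio of S100a4 to S100a6 was 0.669 to 1.05 in PBS, 1.52 to 1.89 in CpG1668 and 1.45 to 1.6 in CpG1668+Dox. In the libraries labelled Dox it was 1.59, 1.57 and 0.718, so Dox 3 fell among the PBS values. Dox 3 had the highest S100a6, S100a8, S100a9 and S100a11 of its group and the lowest S100a4. Among markers fixed for monocytes, the summed level was 127, 202 and 190.3 RPKM in Dox 1, 2 and 3, and that of late neutrophil markers 211, 446 and 755. Among the monocyte markers Lyz2 alone was at 78.1, 143 and 142 RPKM, so the monocyte sum rests largely on that gene. The part of either cell type in these values was not tested.

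S100a11 and S100a10, the annexin-binding members, were abundant in PBS. S100a11 rose in CpG1668+Dox, whereas S100a10 was called in no contrast. S100a11 was at 28.3, 34 and 32.1 RPKM in PBS, at 34.8, 36.7 and 33.2 in CpG1668, at 33.5, 43.4 and 50.9 in Dox and at 56.3, 50 and 67.5 in CpG1668+Dox. PBS and CpG1668 overlapped, as did Dox with each of the other groups. It rose by 0.85 ± 0.14 in CpG1668+Dox against PBS (1.84-fold, adjusted p = 0.0015), in all 20 alternatives, and by 0.71 in CpG1668+Dox against CpG1668 (adjusted p = 0.0207). This latter call was lost without any 1 of the 3 CpG1668 libraries, CpG1668+Dox 1 or CpG1668+Dox 3 (adjusted p 0.0617 to 0.0919), and without the filter (0.075). S100a11 gave 0.15 (adjusted p = 0.599) in CpG1668 against PBS and 0.41 (95% interval 0.11 to 0.71, adjusted p = 0.119) in Dox against PBS. The Dox value was 0.57 without Dox 1 and then passed (adjusted p = 0.018).

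S100a10 was at 88.4, 91.7 and 93 RPKM in PBS, at 76.5, 84.7 and 80.4 in CpG1668, at 86.6, 98.9 and 97.4 in Dox and at 91.9, 90 and 85 in CpG1668+Dox. The CpG1668 libraries lay below those of the 3 other groups, with a ratio of means to PBS of 0.884. Its log2 changes were -0.18 (95% interval -0.30 to -0.06, adjusted p = 0.0918) in CpG1668 against PBS, -0.22 (-0.35 to -0.10, adjusted p = 0.0728) against Dox, and 0.14 (0.02 to 0.26, adjusted p = 0.229) in CpG1668+Dox against CpG1668, none of which passed. Without Dox 1, CpG1668 against PBS (adjusted p = 0.0419) and CpG1668 against Dox (adjusted p = 0.0251) passed for this gene. As S100a11 rose and S100a10 did not, the ratio of S100a10 to S100a11 was 2.7 to 3.13 in PBS and 1.26 to 1.8 in CpG1668+Dox.

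S100a1 and S100a13, which start back to back, were near constant. S100a1 was at 14.6, 14.5 and 15.3 RPKM in PBS, at 15.8, 15.1 and 15.1 in CpG1668, at 14.9, 13.9 and 15.7 in Dox and at 16.5, 15.9 and 16.9 in CpG1668+Dox. The CpG1668+Dox libraries lay just above all others, and S100a1 rose by 0.15 ± 0.04 against PBS (1.11-fold, adjusted p = 0.047), a call that 15 of the 20 alternatives lost (adjusted p up to 0.141), among them both other scalings (log2 changes of 0.13 and 0.14) and the absence of any 1 library but Dox 2 or Dox 3. S100a13 ranged from 25.4 to 31 RPKM over the 12 libraries and its groups overlapped throughout. Its log2 changes ran from -0.11 to 0.08 over the 6 pairwise contrasts, with adjusted p from 0.39 to 0.886.

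**Figure D3:**
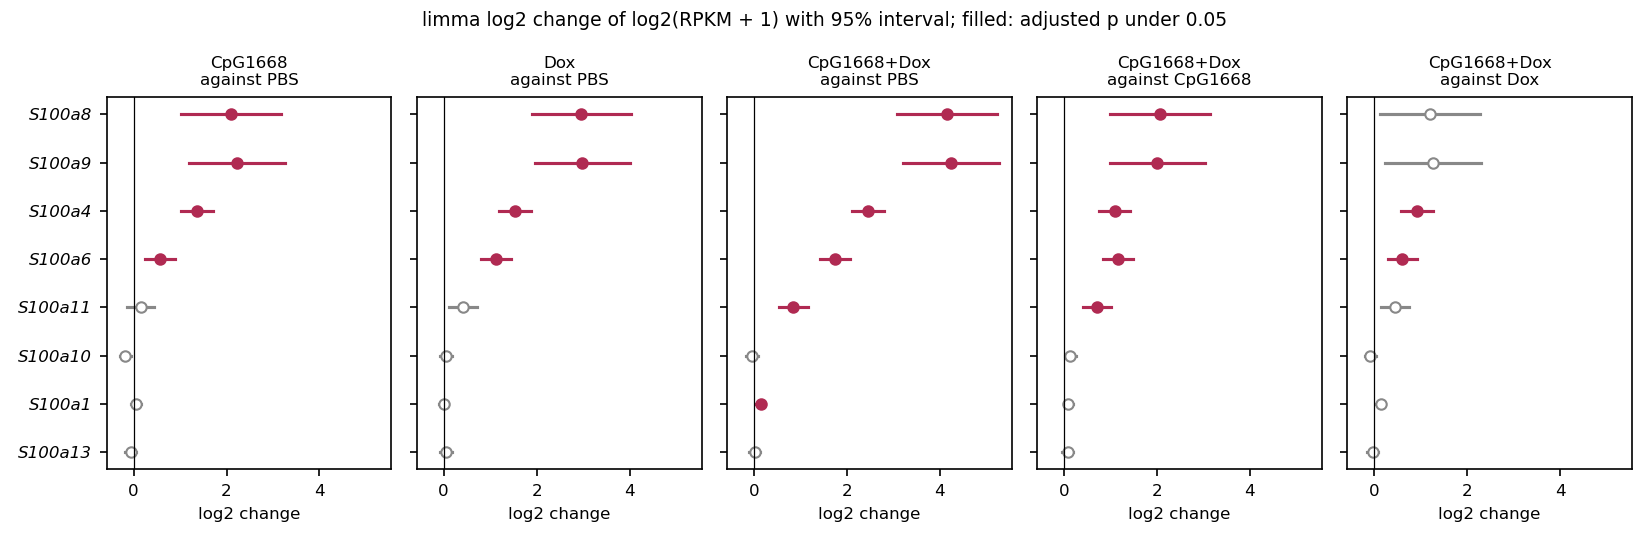
limma log2 changes of log2(RPKM + 1) for the 8 members (rows) in 5 contrasts (panels), with 95% intervals. Filled red points passed an adjusted p of 0.05 and open grey points did not. S100a4 and S100a6 are filled in all 5 panels, S100a8 and S100a9 in all but CpG1668+Dox against Dox, and S100a10 and S100a13 in none.

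Against PBS, 4 of the 8 members were called higher in CpG1668 (S100a4, S100a6, S100a8 and S100a9), where 3.06% of the 12167 genes tested were called higher and 5.88% in either direction. The same 4 were called in Dox, where 3.95% of genes were called higher and 5.98% either way. In CpG1668+Dox 6 of 8 were called, with S100a11 and S100a1 added, beside 9.13% of genes called higher and 15.5% either way. No member was called lower by limma in any of the 7 contrasts. At an unadjusted p under 0.05, S100a10 was lower in CpG1668 than in PBS, and S100a10 and S100a6 were lower in CpG1668 than in Dox. The member medians were 0.36, 0.77 and 1.3, against -0.014, 0.014 and 0.003 for all genes. These 3 comparisons share their PBS libraries. The groups of CpG1668+Dox and PBS did not overlap for 6 members, all higher, and 18.8% of genes tested were higher in that way. Of all genes called in CpG1668+Dox against PBS 58.8% were higher, against 48.6% with median-of-ratios scaling and 41.7% with quantile normalization, and in Dox against PBS 65.9% were higher against 55.6% with quantile normalization.

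Adding Dox to CpG1668 raised 5 of 8 members (S100a4, S100a6, S100a8, S100a9 and S100a11), beside 3.07% of genes called higher and 3.26% either way. Adding CpG1668 to Dox raised 2 of 8 (S100a4 and S100a6), beside 2.81% called higher and 3.48% either way. CpG1668 against Dox called none, where 1.56% of genes were called by limma, and 2 members had an unadjusted p under 0.05. With quantile normalization, the share of called genes that were higher went from 94% to 82.5% in CpG1668+Dox against CpG1668 and from 22.6% to 33.3% in CpG1668 against Dox. The count in CpG1668 against PBS was 1 or 2 without PBS 1, PBS 3, CpG1668 1, CpG1668 2 or CpG1668 3. In CpG1668+Dox against CpG1668 it was 2 or 3 without any 1 of 7 libraries (PBS 3, CpG1668 1, CpG1668 2, CpG1668 3, CpG1668+Dox 1, CpG1668+Dox 3 or Dox 2). In CpG1668+Dox against Dox it was 1 without any 1 of 10 libraries, all but CpG1668 1 (2 members) and Dox 3 (3 members). In CpG1668 against Dox it was 2 without Dox 1.

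The test of whether CpG1668 and Dox together differed from the sum of their log2 changes called 0 members and 0 of 12167 genes (0% of genes) by limma, with 0 members and 812 genes at an unadjusted p under 0.05. The value was -0.90 (95% interval -2.41 to 0.62) for S100a8, -0.97 (-2.42 to 0.48) for S100a9, -0.45 (-0.94 to 0.03) for S100a4 and 0.04 (-0.41 to 0.50) for S100a6. For S100a11 it was 0.29 (-0.13 to 0.72).

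Within the groups the members fell into different patterns. After each library's deviation from its group mean was taken, Pearson's r over the 12 libraries was 0.997 between S100a8 and S100a9, 0.825 between S100a6 and S100a8 and 0.94 between S100a8 and S100a11. It was -0.028 between S100a4 and S100a8 and -0.124 between S100a4 and S100a6. Dox 3 had the lowest S100a4 of its group (6.89 RPKM) and the highest S100a8 (614) and S100a6 (9.6). Both low r values could rest on that library, which was not tested. All r values here are descriptions over libraries that share their depth and cell mixture.

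The genes most like each member over the 12 libraries also differed. They were ranked by Pearson's r of log2(RPKM + 1) among 9993 genes. Predicted gene models (symbols of Gm and digits, or ending in Rik) were left out. S100a8 was most like S100a9 (0.999), and S100a9 most like Ngp and then S100a8 (0.999 each). Ltf and Anxa1 were among the 5 closest genes of both (0.997 to 0.998), of which Ltf encodes lactoferrin of neutrophil granules. S100a4 was most like Clec7a (0.986), the beta-glucan receptor dectin-1, then Ccl6, Lsp1, Cd93 and Ctss (0.97 to 0.981). S100a6 was most like C5ar1, the receptor for complement C5a, and Hexa (0.988 each), with Mmp8, a neutrophil collagenase, at 0.984. S100a11 was most like Pygl (0.983), the liver form of glycogen phosphorylase, and S100a10 most like Tubb2a (0.924), with Ahnak, a partner of the S100a10 and annexin A2 complex, at 0.898. The highest values for S100a1 (Tubgcp4, 0.899) and S100a13 (Npl, 0.946) rest on a narrow range of levels.

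Partners of S100 proteins did not move as one. Of 21 binding partners 16 were tested, and 5 rose and 3 fell in CpG1668+Dox against PBS, with a median of 0.04. Anxa1, which encodes the annexin bound by S100a11, went from 2.15 ± 0.661 RPKM in PBS to 10.6 ± 1.13 with CpG1668, 18.6 ± 12.2 with Dox and 37.7 ± 13.9 with both (log2 change 3.57 in CpG1668+Dox against PBS, adjusted p = 8.1e-05). Anxa2, the partner of S100a10, went from 8.48 ± 0.61 to 9.55 ± 0.508, 13.2 ± 2.3 and 17.2 ± 1.91 RPKM (0.94, adjusted p = 1.4e-04), while S100a10 itself stayed within 76.5 to 98.9. Myh9, the non-muscle myosin heavy chain bound by S100a4, rose by 0.26 (adjusted p = 0.0011). Tpm1 (tropomyosin) fell by 0.39 (adjusted p = 9.0e-05) and Anxa5 fell by 0.17 (adjusted p = 0.0189).

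Among 12 receptors and signalling genes of the calgranulins, 9 were tested, of which 2 rose in CpG1668 and in Dox and 3 in CpG1668+Dox against PBS, and none fell. Emb, which encodes the S100a9 receptor embigin, went from 0.745 ± 0.0963 RPKM in PBS to 6.8 ± 0.959 in CpG1668+Dox (2.16, adjusted p = 1.7e-07). Cd14, the co-receptor of TLR4, went from 1.86 ± 0.035 to 6.63 ± 1.57 (1.40, adjusted p = 1.7e-04). Tlr4 was below the filter, at 0.0601 ± 0.0306 RPKM in PBS and 0.602 ± 0.26 in CpG1668+Dox. Bsg, also on this list, was far more abundant, at 114 to 138 RPKM over the 12 libraries, and was not among the genes called.

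Calprotectin also carries arachidonic acid to the NADPH oxidase and binds microtubules. Against PBS, 4 of 9 tested genes of these partners rose with CpG1668, 3 with Dox and 6 with both, and none fell. Cybb, the catalytic subunit, went from 1.64 ± 0.583 to 18.5 ± 4.98 RPKM between PBS and CpG1668+Dox (2.88, adjusted p = 1.2e-05), and the cytosolic subunits Ncf1 and Ncf4 rose by 2.86 and 2.65. On a list of other EF-hand proteins, Grn rose by 0.55, Lcp1 rose by 0.59 and Capn2 fell by 0.29 in CpG1668+Dox against PBS. Grn encodes progranulin, which has no EF-hand.

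Of 14 tested myeloid regulators linked to calgranulin transcription, 5 rose and 1 fell in CpG1668, 8 rose in Dox, and 8 rose and 1 fell in CpG1668+Dox against PBS. The medians of their log2 changes were 0.1, 0.16 and 0.15, against -0.014, 0.014 and 0.003 over all genes. Some of the rises counted were small, such as Stat3 (0.13 in Dox and 0.16 in CpG1668+Dox) and Hif1a (0.16 and 0.14). Klf4 and Irf8 were also on the monocyte list. Klf4 rose by 2.02 (adjusted p = 1.6e-08), Cebpb by 1.68 (adjusted p = 2.3e-06), Cebpa by 1.55 (adjusted p = 5.9e-07) and Irf8 by 1.49 (adjusted p = 1.5e-06) in CpG1668+Dox against PBS. Their levels there were 4.64 ± 0.355, 9.47 ± 1.02, 2.89 ± 0.346 and 2.89 ± 0.614 RPKM. Gfi1b, a repressor that acts in erythroid and megakaryocyte cells, fell by 0.32 (adjusted p = 8.7e-04).

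Around the members on chromosome 3, 33 other genes are annotated within 100 kb, of which 21 were in the files and 6 passed the filter. Of the 42 tests of these 6 genes in 7 contrasts, 2 were called. Both were of Snapin, which encodes a SNARE-associated protein and was lower by small amounts. It gave -0.21 in Dox against PBS (adjusted p = 0.0357) and -0.20 in CpG1668+Dox against PBS (adjusted p = 0.0211), where 5.98% and 15.5% of all genes were called. The pseudogene Gm19739, between S100a6 and S100a8, was at 0.921 ± 0.152 RPKM in PBS. By limma it gave 0.60 in CpG1668 (adjusted p = 0.0647) and 0.62 in Dox (adjusted p = 0.0569) against PBS, without overlap, and did not pass. The members called in CpG1668+Dox against PBS were in both blocks, and S100a13, between S100a1 and S100a4, was not called.

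**Figure D4:**
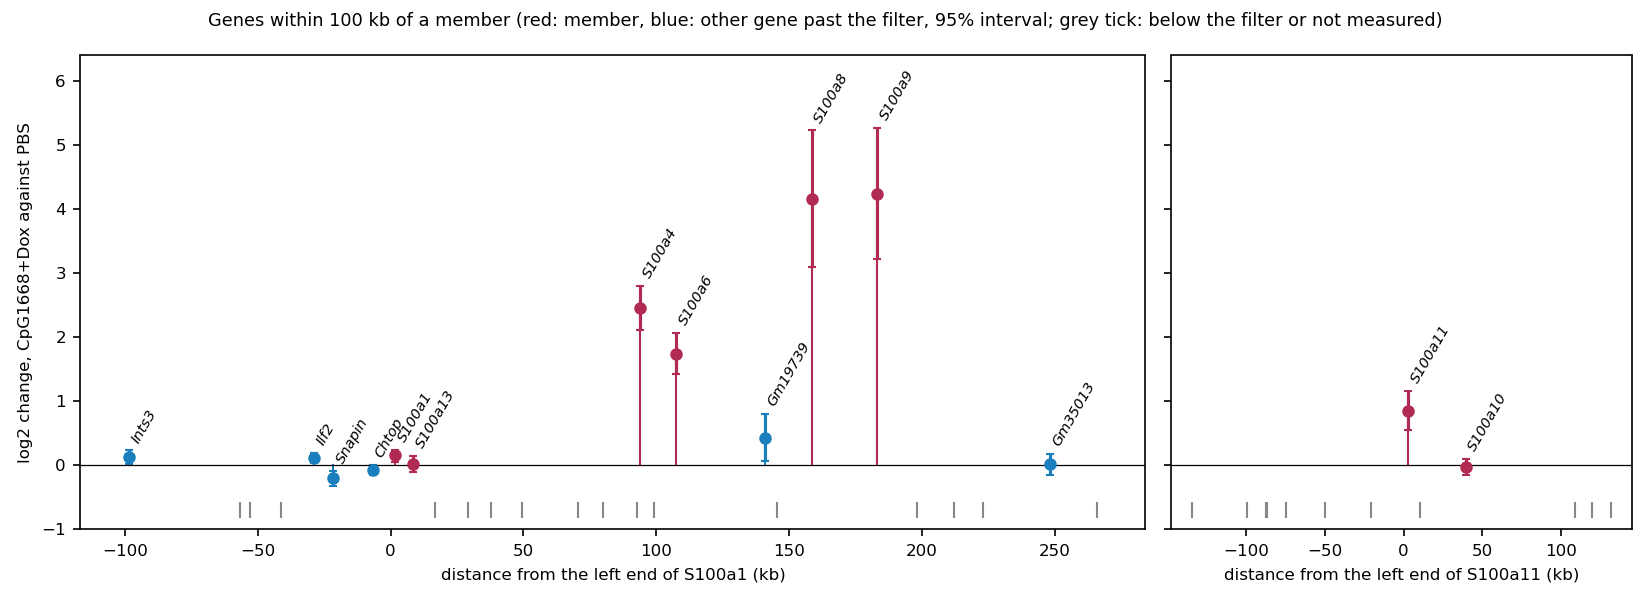
log2 change in CpG1668+Dox against PBS (limma, with 95% intervals) of the 8 members and tested neighbours, placed by distance along chromosome 3 in the 2 blocks of S100 genes. S100a8 and S100a9 stand at 4.16 and 4.24 and S100a4 at 2.45, while the neighbour Snapin lies at -0.20.

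The other S100 genes in the files were nearly silent. S100a2, S100a3, S100a5, S100a7a, S100a14, S100a16, S100b and S100g reached at most 0.142 RPKM in any library, and none passed the filter.

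Markers of other cell types were measured beside the members. All 13 tested monocyte markers rose against PBS in each treated group. Markers low in PBS, such as Klf4 (0.393 ± 0.032 RPKM), could pass the filter through the treated groups, which partly sets such counts. The sum of the monocyte list (17 genes) was 34.7 to 56.1 RPKM in PBS, 161 to 185 in CpG1668, 127 to 202 in Dox and 339 to 482 in CpG1668+Dox. Of these sums, Lyz2 alone was 22 ± 7.59 RPKM in PBS and 288 ± 60.2 in CpG1668+Dox. Of 9 tested primary granule genes, 6 rose against PBS with CpG1668, 6 with Dox and 7 with both. Of 15 tested erythroid genes, 4 fell against PBS with CpG1668, 8 with Dox and 13 with both. Their sums were 14646 to 19583 RPKM in PBS, 6182 to 10485 in CpG1668, 3285 to 7635 in Dox and 3426 to 6047 in CpG1668+Dox. These sums rest largely on globin genes, such as Hbb-bs (5819 ± 938 RPKM in PBS) and Hba-a2 (5287 ± 724). Gata1 went from 104 ± 3.23 RPKM in PBS to 89.8 ± 3.86 in CpG1668+Dox. In CpG1668+Dox against PBS 1 of 9 tested splenic macrophage genes rose, 3 of 8 eosinophil, basophil and mast cell genes rose, and none of 4 megakaryocyte genes and none of 1 stromal gene was called. Dendritic cell, B cell, and T and NK cell markers all lay below the filter, with highest sums of 4.71, 1.7 and 1.19 RPKM. The part of these cell types in the S100 values was not tested.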

How the data were processed

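RNA of sorted leukaemia cells was sequenced as 12 libraries, 3 in each of 4 groups. The authors deposited RPKM per gene symbol, made from reads with STAR 2.7.9 and Partek 7.18.0723 on mm10, per the submitters' processing notes. Tool roles, annotation and strand use were not given in the sources used here. Groups came from the sample labels. Genes with a mean of at least 1 RPKM (12167 of 33531) were fitted as log2(RPKM + 1) with limma 3.58.1 in R 4.3.3, with all 4 groups, an intensity trend and Benjamini-Hochberg adjustment in each of 7 contrasts, and called at an adjusted p under 0.05. A log2 change on this scale understates that of low genes. A gene low in PBS could pass the filter through the treated groups, so counts of rises in the lists are partly set by it. The script was tested on simulated data. RPKM are not counts, so no count test was run. Depth was estimated from the step of 1 read, with 72.2% to 73.4% of 4852 to 5188 low genes with 1 transcript per library at whole multiples within the tolerance of 0.05 reads, and limits from it cover counting error only. No library pair was identical. The members and lists were chosen with earlier results of these data known. Named genes were all members, cell type markers and called genes of each list. Per list, direction and contrast, up to 4 called genes with the largest moderated t were taken. Like genes were the 5 highest by Pearson's r, with predicted gene models left out. Tlr4 and Bsg were named after their values were seen. Alternatives were another pseudocount (0.1), no filter, a mean of 5 RPKM, 2 other scalings, no trend, a replicate block, only the groups compared, and each library left out. Some results of the list of other EF-hand proteins are not reported here.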

Additional observations from a re-analysis of the deposited data

How the results depend on the processing

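Of 1112 single-member values under alternatives, 1027 kept their side of the threshold, 80 lost a call and 5 gained one. Of values called in either fit, 0 reversed. Values called in neither fit could change sign and are among the 1027, such as S100a1 in Dox against PBS (-0.04 to 0.05). The number of members called in CpG1668 against PBS (4) was 1 without the filter on low values. In CpG1668+Dox against CpG1668 (5) it was 2 without the filter and 3 with quantile normalization. In CpG1668+Dox against Dox (2) it was 1 with a pseudocount of 0.1, 1 without the filter, 1 without the intensity trend and 0 with only the groups compared. More genes were tested without the filter, and the cause of these differences was not tested. With each library left out in turn, the count was 1 to 5 in CpG1668 against PBS, 4 to 5 in Dox against PBS, 5 to 6 in CpG1668+Dox against PBS, 2 to 5 in CpG1668+Dox against CpG1668, 1 to 3 in CpG1668+Dox against Dox, 0 to 2 in CpG1668 against Dox and 0 to 0 for the interaction. Over all genes, left-out libraries gave 367 to 760 calls in CpG1668 against PBS (716), 313 to 752 in Dox against PBS (728), 1346 to 1916 in CpG1668+Dox against PBS (1890), 123 to 449 in CpG1668+Dox against CpG1668 (397), 249 to 414 in CpG1668+Dox against Dox (423) and 31 to 234 in CpG1668 against Dox (190). The settings gave 455 to 767, 355 to 761, 1155 to 2624, 185 to 396, 180 to 658 and 72 to 188, and 0 to 12 for the interaction. The median log2 change of all genes lay between -0.029 and 0.003 with the other scalings and between -0.021 and 0.016 without them.

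Replicate numbers showed no clear pairing of the libraries. Deviations of same-numbered libraries had r of -0.21 to 0.27 (mean -0.04), and those of different-numbered libraries -0.38 to 0.32 (mean 0.02). Of 12 libraries, 3 correlated best with one of their own number. A small effect shared by libraries of a number could be missed with 3 libraries a group. With the number as a replicate block, the members called were 4, 4, 6, 5, 2, 0 and 0 in the 7 contrasts, as without it.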
